A study of Mus musculus with 2 samples.

Results

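The genes described here make, pack and break down the inhibitory transmitter GABA, specify the GABA neurons of the midbrain, or carry chloride across the neuronal membrane. There were 10 of them, Gad1, Gad2, Slc32a1, Abat, Gata2, Gata3, Tal1, Sox14, Slc12a2 and Slc12a5, out of 43346 mouse genes in the deposited gene tables. They were chosen by name for their roles, with earlier results of these data known, and each was found by its gene identifier. The series holds 2 RNA-seq libraries of newborn mouse midbrain at an age of 0 days, from the mouse strain B6NCrl (a C57BL/6N line), with no treatment or genetic change named in the labels. One library came from pup 1 (replicate 1) and the other from pup 3 (replicate 2), each from a single midbrain, and both belong to 1 group. Each was amplified from 13 pg of total RNA, labelled as 1 cell-equivalent, so the material is a minute sample of tissue RNA and not an isolated cell, although the assay is labelled single-cell. The labels give 1 donor record for both pups and no sex.

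GABA is made from glutamate by glutamate decarboxylase, whose forms GAD67 and GAD65 are encoded by Gad1 and Gad2, is packed into vesicles by the transporter VGAT (Slc32a1) and is broken down by GABA transaminase (Abat). In the mouse midbrain, Gata2 acts as a selector factor that gives postmitotic cells a GABA neuron identity instead of a glutamate neuron identity. Gata3 and Tal1 are further factors of this lineage, and Sox14 marks a subset of those GABA neurons. Whether GABA depolarises or hyperpolarises a neuron depends on its chloride, which NKCC1 (Slc12a2) brings in and KCC2 (Slc12a5) extrudes, and in rodents KCC2 gains on NKCC1 around and after birth.

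The libraries held 26583225 expected counts in pup 1 and 33142647 in pup 3, and 10166 and 9367 mouse genes reached 1 TPM, the level taken as detected. A gene at 0 counts could still have been present at up to 3 counts, or 0.113 CPM (counts scaled to the library total) in pup 1 and 0.0905 CPM in pup 3. Levels are TPM, a measure of transcript abundance per length, and brackets give the deposited bounds of the TPM interval. Those bounds belong to a posterior estimate, so the TPM itself can lie outside them, and they cover read assignment and counting only. Of 7 midbrain markers, 6 were detected in at least 1 pup, and 3 of these (Th, Pou4f1 and Meis2) in both. Over all genes detected in at least 1 pup, 60.8% were detected in both. Of 6 tested, 1 was over 4-fold higher in pup 1 (Otx2, 40.6 TPM in pup 1 and 0.40 TPM in pup 3). Another 1 was over 4-fold higher in pup 3 (Pax7, 0.14 TPM in pup 1 and 6.76 TPM in pup 3). The same rule, given below, listed 46.5% of all genes, so these markers did not differ more often than genes in general. The sum of the 7 markers, 178 TPM in pup 1 and 188 TPM in pup 3, does not show the Otx2 and Pax7 differences. All 10 Hox genes checked for hindbrain and spinal cord were at 0 in both, as were the cortex genes Emx1, Tbr1 and Fezf2. With 2 pups an exact test across animals could not go below p = 0.5, and none was run. Differences between the pups compare 2 libraries and have no replicate check.

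Of the 10 genes, 7 were detected in both pups (Gad1, Gad2, Slc32a1, Abat, Gata3, Slc12a2 and Slc12a5), Tal1 and Sox14 in pup 3 alone at this limit, and Gata2 in neither. Over all 12144 genes detected in at least 1 pup, 60.8% were detected in both. The summed level of the 10 genes was 361 TPM in pup 1 and 357 TPM in pup 3, while their median was 3.66 TPM in pup 1 and 31.0 TPM in pup 3. Gad1, Abat and Slc32a1 had the higher level in pup 1, and 6 genes had the higher level in pup 3. By mean level the order was Gad1, Abat, Slc12a5, Gata3, Gad2, Sox14, Slc12a2, Tal1, Slc32a1 and Gata2. The ranges of neighbours in that order, each taken over both pups, overlapped throughout, except for Slc32a1 and Gata2. Such overlap does not say whether a pair of genes kept the same order within each library.

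**Figure D1:**
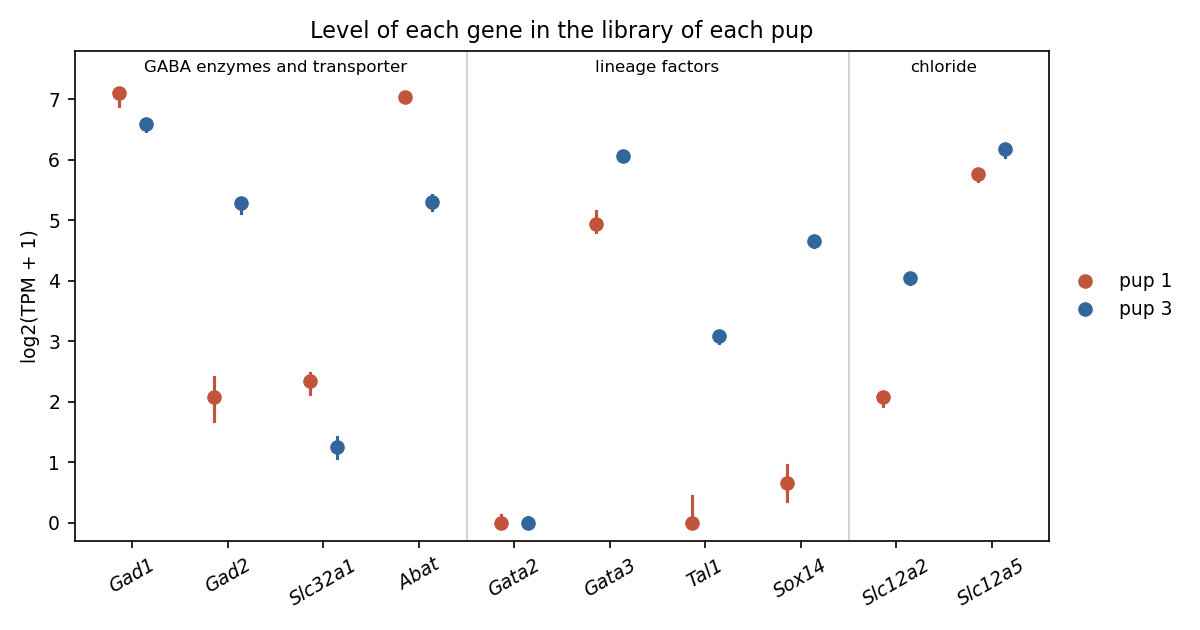
Level of the 10 genes as log2(TPM + 1) in pup 1 (red) and pup 3 (blue), 1 point per library, with vertical lines for the deposited bounds of the TPM interval. Gad1 and Slc12a5 lie at similar heights in the 2 pups, Gad2, Tal1, Sox14 and Slc12a2 lie higher in pup 3, Abat lies higher in pup 1, and Gata2 is at 0 in both.

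A gene was listed as over 4-fold apart when the whole exact 95% interval of its count ratio, pup 1 over pup 3 and scaled by the counts on mouse genes, lay beyond 4-fold. Of the 9 genes with a level to compare, 5 met this: Abat was higher in pup 1, and Gad2, Tal1, Sox14 and Slc12a2 were higher in pup 3. Among all 12144 genes the same rule listed 46.5%, made up of 25.9% higher in pup 1 and 20.5% higher in pup 3. A share of 5 in 9 is close to that background, so differences of this size between the pups are what genes in these libraries commonly show. A gene that did not meet the rule may still differ by over 4-fold in TPM, since the rule reads counts and their interval. In bulk RNA, fewer cells of a type and less RNA per cell cannot be told apart.

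**Figure D2:**
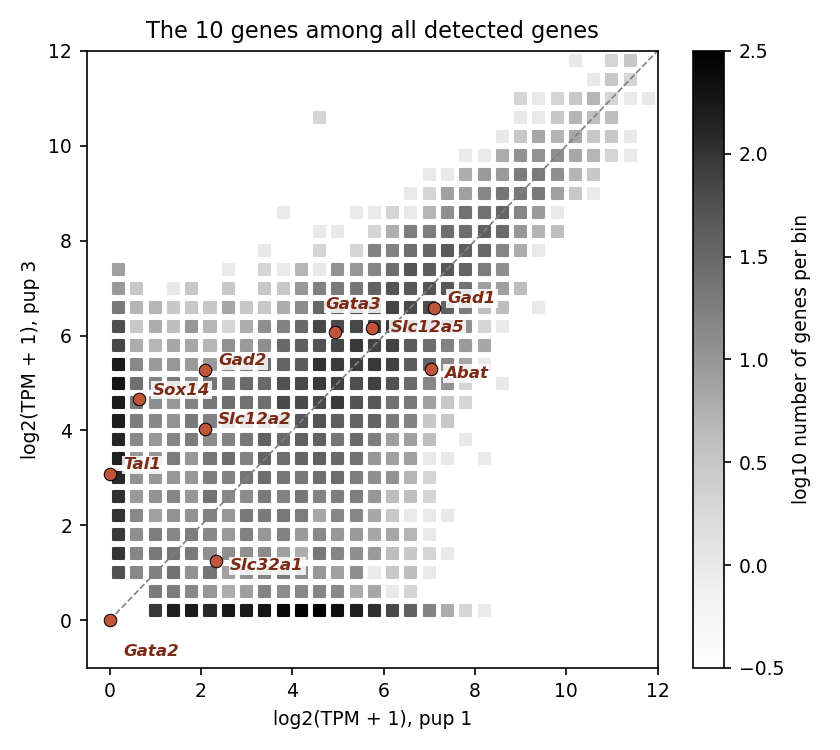
Level of each gene detected in at least 1 pup, as log2(TPM + 1) in pup 1 (horizontal) and pup 3 (vertical), in bins shaded by the log10 number of genes, with the 10 genes as red points and equal levels as a dashed line. Gad1 and Slc12a5 lie near the line and Tal1, Sox14 and Gad2 lie above it, among the many genes read mainly in 1 library.

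Gad1 (ENSMUSG00000070880.6, GRCm38 chromosome 2, 70553072 to 70602014, plus strand) encodes GAD67, which makes most of the GABA of the newborn mouse brain. It had 137 TPM in pup 1 [118 to 143] and 95.3 TPM in pup 3 [88.0 to 99.7], a mean of 116 ± 29.4 (SD, n = 2). Both pups placed it high among detected genes, at the 87.8 percentile in pup 1 and the 80.4 percentile in pup 3. By counts Gad1 was the steadiest of the 10 genes after Slc12a5. It had 5362 counts in pup 1 and 6046 counts in pup 3, or 202 CPM in pup 1 and 182 CPM in pup 3 (192 ± 13.6, SD, n = 2), and the count ratio was 1.10 (1.06 to 1.15), a log2 value of 0.14. The TPM ratio was 1.44. TPM divides counts by a mean transcript length, which the tables put at 2502 bases in pup 1 and 2885 bases in pup 3. It is also scaled over each library, so length accounts for only part of the gap between these ratios. Slc32a1, which has a single transcript, also had a higher ratio by TPM (2.95) than by counts (2.62).

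Gad2 (ENSMUSG00000026787.3, chromosome 2, 22622205 to 22693874, plus strand) encodes GAD65, the form tied to synaptic vesicles. It had 3.24 TPM in pup 1 [2.20 to 4.31] and 37.8 TPM in pup 3 [33.8 to 40.3], from 164 counts in pup 1 and 3358 counts in pup 3. The pups did not overlap: Gad2 sat at the 10.1 percentile of detected genes in pup 1 and at the 55.9 percentile in pup 3. The log2 count ratio was -4.04, or 16.5-fold lower in pup 1 (14.1 to 19.4). Of 4 markers of forebrain GABA neurons, which summed to 10.6 TPM in pup 1 and 39.8 TPM in pup 3, Dlx5 was higher in pup 3 as Gad2 was, Dlx1 was higher in pup 1, and Dlx2 and Lhx6 were at 0 in both. The part of forebrain GABA cells in the Gad2 difference was not tested.

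Both enzymes need pyridoxal phosphate, which binds a lysine in the active site. The stretch around that lysine is shown to compare the genes. In coding sequence as a whole, Gad1 (593 codons) and Gad2 (585 codons) were identical at 1168 of 1740 aligned bases, or 67.1%, and in this stretch at 44 of 57. Both sequences are on the plus strand of chromosome 2, from GENCODE M21 transcripts on GRCm38, at chr2:70593433-70593489 for Gad1 and chr2:22673945-22674001 for Gad2. Capitals mark the lysine codon, number 404 in Gad1 and 396 in Gad2.
Gad1 cofactor site: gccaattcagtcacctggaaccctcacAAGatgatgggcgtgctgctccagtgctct
Gad2 cofactor site: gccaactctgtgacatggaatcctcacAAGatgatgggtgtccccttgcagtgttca

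The first coding exons are shown because they encode the start of the region in which GAD65 and GAD67 are known to differ most. Capitals mark the start codon, and the exons lie at chr2:70563832-70563910 (Gad1) and chr2:22622663-22622738 (Gad2), both on the plus strand.
Gad1-201 first coding exon: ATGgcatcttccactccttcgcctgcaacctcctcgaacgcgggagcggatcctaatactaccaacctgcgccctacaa
Gad2-201 first coding exon: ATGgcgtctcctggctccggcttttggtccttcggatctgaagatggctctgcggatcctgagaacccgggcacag
The full form Gad1-201 has this Gad1 exon, and Gad1-206, the most abundant form in both pups, lacks it.

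Within a library, Gad1 was above Gad2 in both pups. The log2 ratio of (TPM + 1) was 5.02 in pup 1 and 1.31 in pup 3, a mean of 3.17 ± 2.62 (SD, n = 2), and the TPM of Gad1 was 42.3 times that of Gad2 in pup 1 and 2.52 times in pup 3. This order rests on which transcripts are counted. For the full-length coding forms alone, a comparison added after the values were seen, Gad1-201 had 40.9 TPM in pup 1 and 20.02 TPM in pup 3, and Gad2-201 had 1.60 TPM in pup 1 and 24.7 TPM in pup 3. The log2 ratio was then 4.01 in pup 1 and -0.29 in pup 3, so Gad1 was above Gad2 in pup 1 and no order held over both pups.

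Gad1 is known for embryonic transcripts in rodents that include an extra exon with a stop codon, so that they encode a short protein without the cofactor site. That exon has 80 bases at chr2:70584420-70584499 on the plus strand, and its reading frame ends after 223 codons, against 593 in the full form. The junctions are shown because they separate the embryonic from the full form, each starting with the same 27 bases of the preceding exon. Capitals mark the embryonic stop codon, and the sequences run from chr2:70579175 to 70584456 in Gad1-203 and to 70585870 in Gad1-201, spliced.
Gad1-203, embryonic exon: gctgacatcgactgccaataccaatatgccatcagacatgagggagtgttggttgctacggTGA
Gad1-201, next exon of the full form: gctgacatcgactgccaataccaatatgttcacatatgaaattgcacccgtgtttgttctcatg
Of the 3 annotated forms with this exon, Gad1-203 and Gad1-207 had 0 counts in both pups. Gad1-205, in which the exon runs on into the intron, had 98.0 counts in pup 1 and 0 in pup 3, or 3.74 TPM in pup 1 [2.80 to 4.57] and 0 TPM in pup 3. Embryonic forms thus held 1.83% of Gad1 counts in pup 1 (exact 95% interval 1.49 to 2.22). In pup 3 they held 0 of 6046 counts, with an exact 95% upper bound of 0.0610%. The 3-count floor corresponds to a share of 0.0496% in pup 3. Of the 1705 bases of Gad1-205, 1006 are not in the full form, and the tables do not say which of its bases the reads covered, so reads across the embryonic junction itself cannot be stated.

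Most Gad1 reads went to a pair of long forms that are nearly the same. The full form Gad1-201 (3355 bases, 17 exons) had 2171 counts in pup 1 and 1485 in pup 3, which was 29.9% of Gad1 abundance in pup 1 and 21.0% in pup 3. Gad1-206 (2996 bases), which is annotated without a reading frame and starts at its own first exon, had 2707 counts in pup 1 and 4480 in pup 3. It was the most abundant Gad1 form in both pups, with 41.9% of abundance in pup 1 and 71.3% in pup 3 (56.6% ± 20.8, SD, n = 2). Just 2 bases of Gad1-201 are in no other form, and the posterior SD of its count was 296 in pup 1 and 180 in pup 3, so the split of these 2 forms carries more error than the gene total, whose posterior SD was at most 0.69 counts for any of the 10 genes. The intervals still kept Gad1-206 above Gad1-201 in pup 3, where Gad1-201 reached at most 23.9 TPM. In pup 1 the intervals overlapped, at 41.9 to 65.2 TPM for Gad1-206 and 30.2 to 53.3 TPM for Gad1-201.

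Short forms, those under 50% of the length of the longest coding transcript, took a larger part of Gad1 in pup 1. Together the 4 short forms, of which Gad1-202 and Gad1-204 had counts, held 25.5% of Gad1 abundance in pup 1 and 7.73% in pup 3. By counts they held 7.17% in pup 1 (6.50 to 7.90) and 1.35% in pup 3 (1.08 to 1.68), and these intervals, which cover counting error only, do not overlap. TPM divides by length, so a short transcript needs few reads for a high share. Gad2 had 1 short form, Gad2-202 (721 bases, no reading frame), with 16.6 counts in pup 1 and 185 in pup 3. It made up 50.6% of Gad2 abundance in pup 1 and 34.6% in pup 3, but 10.1% of the counts in pup 1 (6.16 to 16.1) and 5.52% in pup 3 (4.76 to 6.34).

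**Figure D3:**
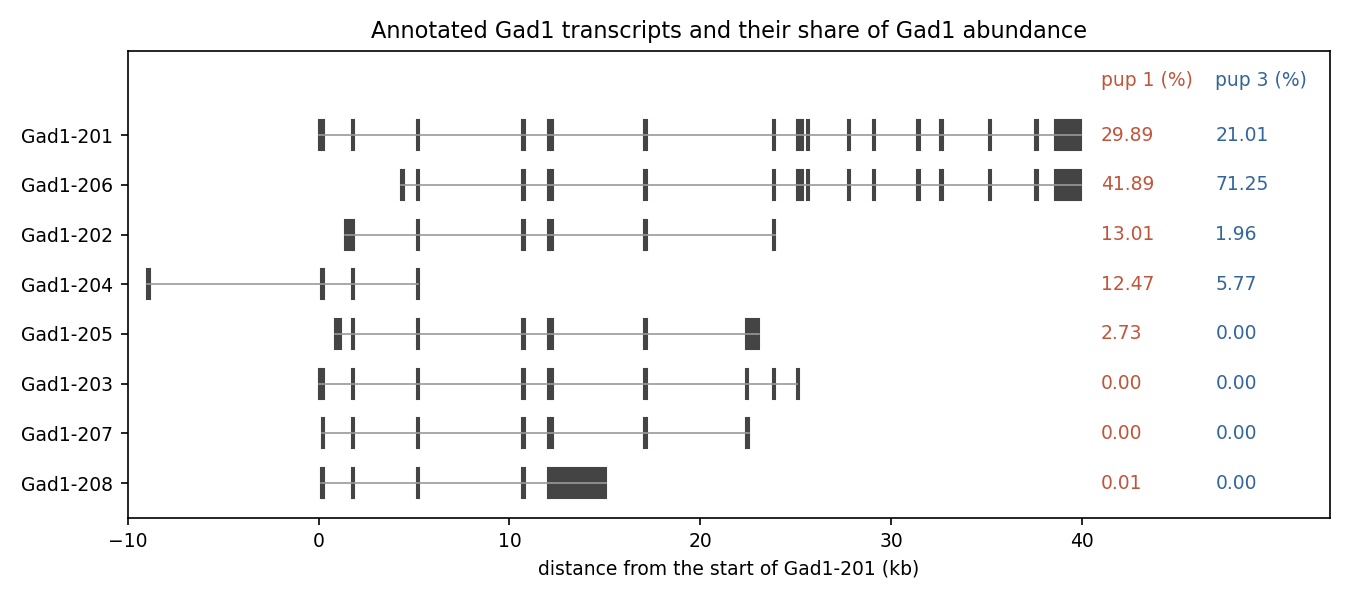
Exons (boxes) of the 8 annotated Gad1 transcripts by distance in kb from the start of Gad1-201, with the deposited percent of Gad1 abundance on each in pup 1 (red) and pup 3 (blue). Gad1-203, Gad1-205 and Gad1-207 carry the embryonic exon near 22 kb, and of these Gad1-205 alone has a share, 2.73% in pup 1 and 0 in pup 3.

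Slc32a1 (ENSMUSG00000037771.11, chromosome 2, 158610767 to 158615748, plus strand) loads GABA and glycine into vesicles. It had 4.07 TPM in pup 1 [3.39 to 4.55] and 1.38 TPM in pup 3 [1.09 to 1.66], from 179 counts in pup 1 and 85 counts in pup 3 on its single transcript. Both levels were low, at the 12.3 percentile of detected genes in pup 1 and the 2.39 percentile in pup 3. Pup 1 was the higher, with a log2 count ratio of 1.39 or 2.62-fold (2.01 to 3.43), short of the 4-fold rule. Gad1 stood above its vesicle transporter in both pups, with log2 ratios of (TPM + 1) of 4.77 in pup 1 and 5.34 in pup 3 (5.05 ± 0.40, SD, n = 2), which is 33.6-fold in TPM in pup 1 and 69.0-fold in pup 3. The order kept with the full Gad1 form alone, at log2 ratios of 3.05 in pup 1 and 3.14 in pup 3.

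The vesicle transporter of glutamate neurons, Slc17a6 (VGLUT2), stood far above Slc32a1. Slc17a6 had 180 TPM in pup 1 and 97.9 TPM in pup 3, and the log2 ratio of Slc32a1 to Slc17a6 was -5.16 in pup 1 and -5.38 in pup 3 (-5.27 ± 0.16, SD, n = 2). No such gap appeared for Gad1, whose log2 ratio to Slc17a6 was -0.39 in pup 1 and -0.04 in pup 3 (-0.21 ± 0.25, SD, n = 2). In pup 3 the intervals of Gad1 and Slc17a6 overlapped, so no order was named for that pair.

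Abat (ENSMUSG00000057880.8, chromosome 16, 8513429 to 8621568, plus strand) encodes GABA transaminase, a mitochondrial enzyme of neurons and astrocytes. It had 130 TPM in pup 1 [124 to 131] and 38.5 TPM in pup 3 [34.9 to 41.6], from 9608 counts in pup 1 and 2249 counts in pup 3. It was the only one of the 10 genes over 4-fold higher in pup 1, with a log2 count ratio of 2.41 or 5.32-fold (5.08 to 5.57). The TPM ratio was 3.38, since in pup 3 the short form Abat-205 (696 bases) took 46.6% of the abundance from 244 counts, 10.8% of the total. The full form Abat-201 held 99.7% of the abundance in pup 1 and 47.1% in pup 3. Abat-205 has no base of its own, so its reads are an assignment among shared bases. The 4 astroglia markers did not go one way. Fabp7 carried most of their sum, with 1385 TPM in pup 1 and 2053 TPM in pup 3. Slc1a3 had 213 TPM in pup 1 and 101 TPM in pup 3, the direction of Abat, as did the third detected marker, and Gfap was at 0 in both. The part of astroglia in the Abat difference was not tested. Gad1 and Abat were close in pup 1, with a log2 ratio of 0.07 in pup 1 and 1.28 in pup 3, and no order was named for them.

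Gata3 (ENSMUSG00000015619.10, chromosome 2, 9857078 to 9890034, minus strand) was the only lineage factor among the genes described here that was detected in both pups. It had 29.5 TPM in pup 1 [26.8 to 34.6] and 66.0 TPM in pup 3 [63.0 to 69.7], from 996 counts in pup 1 and 4276 counts in pup 3 (47.8 ± 25.8 TPM, SD, n = 2). Pup 3 was the higher, by a log2 count ratio of -1.79 or 3.45-fold lower in pup 1 (3.22 to 3.70), short of the 4-fold rule. The full coding form Gata3-201 held 63.5% of the abundance in pup 1 and 90.6% in pup 3. The rest was Gata3-204, a form of 344 bases without a reading frame, from 43.0 counts in pup 1 and 34.7 in pup 3.

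Gata2 (ENSMUSG00000015053.10, chromosome 6, 88193891 to 88207032, plus strand), the selector factor that acts as mouse midbrain precursors leave the cell cycle, had 0 counts in both pups. Its deposited upper bound was 0.0908 TPM in pup 1 and 0.0662 TPM in pup 3. Gata3 was therefore above Gata2 in both, with a log2 ratio of (TPM + 1) of 4.93 in pup 1 and 6.07 in pup 3 (5.499 ± 0.80, SD, n = 2). With Gata2 at 0, the size of this ratio depends on the pseudocount, and its mean was 8.79 with a pseudocount of 0.1 and 3.31 with a pseudocount of 5. No fold is given against a gene at 0.

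Tal1 (ENSMUSG00000028717.8, chromosome 4, 115056426 to 115071755, plus strand), a partner of the GATA factors in midbrain neurons and in blood, was read in pup 3 and not in pup 1. It had 0 TPM in pup 1 (upper bound 0.365) and 7.47 TPM in pup 3 [6.86 to 7.98], from 0 counts in pup 1 and 700 counts in pup 3. Set against the 3 counts that a 0 allows, Tal1 was at least 187-fold lower in pup 1. All 700 counts lay on the full-length form Tal1-201. A 0 beside such a level was common in these libraries: among the 876 genes that pup 3 held at 5 to 10 TPM, pup 1 had fewer than 3 counts for 236, or 26.9%. Tal1 was below Gata3 in both pups, with log2 ratios of Gata3 to Tal1 of 4.93 in pup 1 and 2.98 in pup 3 (3.96 ± 1.38, SD, n = 2).

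Blood cells also carry Tal1 and Gata2, and blood genes were present in both libraries. Of 14 erythroid and megakaryocyte genes, 7 were detected in both pups, and the list summed to 1833 TPM in pup 1 and 2947 TPM in pup 3. Globin genes made up most of this. The alpha-globin gene Hba-a2 had 733 TPM in pup 1 and 1099 TPM in pup 3, and its near-copy Hba-a1 had 328 TPM in pup 1 and 562 TPM in pup 3. The beta-globin gene Hbb-bs had 476 TPM in pup 1 and 819 TPM in pup 3, and its near-copy Hbb-bt had 166 TPM in pup 1 and 381 TPM in pup 3. All of these were higher in pup 3 without meeting the 4-fold rule, and the split of reads between near-identical copies is uncertain. Of 9 genes of the list tested, 2 were over 4-fold higher in pup 1, against 25.9% of all genes. In the other direction, 1 was over 4-fold higher in pup 3, against 20.5% of all genes. That 1 was an erythroid gene with 0 TPM in pup 1 and 30.7 TPM in pup 3. Among the 2698 genes that pup 3 held at 20 to 50 TPM, 18.6% had fewer than 3 counts in pup 1. Cd34, a surface protein of blood progenitors and vessels and 1 of those higher in pup 1, had 50.1 TPM in pup 1 and 0 TPM in pup 3. The erythroid factors Gata1 and Klf1 and the megakaryocyte gene Itga2b were at 0 in both pups. The part of blood in the Tal1 difference was not tested.

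Sox14 (ENSMUSG00000053747.9, chromosome 9, 99874106 to 99876170, minus strand) marks GABA neurons of the dorsal midbrain and the thalamus. It had 0.57 TPM in pup 1 [0.278 to 0.946] and 24.2 TPM in pup 3 [22.4 to 25.3], from 11 counts in pup 1 and 1084 counts in pup 3. The log2 count ratio was -6.31, or 79.2-fold lower in pup 1 (44.1 to 159). For comparison, among the 2698 genes that pup 3 held at 20 to 50 TPM, pup 1 had fewer than 3 counts for 501, or 18.6%, and 35.0% of the 2698 were over 4-fold apart. The 11 counts of pup 1 were all assigned to Sox14-202, and the 1084 of pup 3 all to Sox14-201. Sox14-202 has no base of its own, so this split is an assignment among shared bases. Gata3 stood above Sox14 in both pups, with log2 ratios of 4.28 in pup 1 and 1.41 in pup 3 (2.85 ± 2.03, SD, n = 2). Of the 4 lineage factors, then, pup 3 held Gata3, Tal1 and Sox14, and pup 1 held Gata3 with a trace of Sox14 below the detection level.

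Other factors listed for the midbrain GABA lineage were detected about as often in both pups as genes in general. Of 24 such genes, both pups held 8 at the detection level, pup 1 alone held 2, pup 3 alone held 4, and 10 were detected in neither. The 8 are to be read against the 14 detected in at least 1 pup and the 60.8% of all genes. Tcf7l2 had 582 TPM in pup 1 and 426 TPM in pup 3. It is a factor of the thalamus and dorsal midbrain and is not particular to GABA neurons. Foxp2 had 109 TPM in pup 1 and 74.2 TPM in pup 3. The LIM-only cofactors were lower, with Lmo4 at 89.9 TPM in pup 1 and 34.5 TPM in pup 3, and Lmo1 at 73.2 TPM in pup 1 and 16.8 TPM in pup 3. These led the list by mean level, and none met the 4-fold rule by counts. Of 14 genes tested, 2 were over 4-fold higher in pup 1 and 4 were over 4-fold higher in pup 3, near the 46.5% of all genes. The 9 genes at 0 counts in both pups included the progenitor factor Helt, the Tal1 relative Tal2, and Nkx6-2, Lhx5, Zfpm1, Pax2, Dmrta2 and Foxa1.

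Few factors of forebrain GABA neurons were read. Of 12 genes, 3 were detected in both pups and 2 in pup 3 alone, and the list summed to 21.4 TPM in pup 1 and 106 TPM in pup 3. Of 5 tested, 2 were over 4-fold apart, both higher in pup 3, against 46.5% of all genes in either direction and 20.5% higher in pup 3. Dlx5, a homeobox gene of forebrain interneurons and one of these, had 0 TPM in pup 1 and 32.4 TPM in pup 3. Isl1 had 6.45 TPM in pup 1 and 32.2 TPM in pup 3, and Dlx1 had 10.6 TPM in pup 1 and 7.40 TPM in pup 3, and by counts neither met the 4-fold rule. The other 7 genes, Dlx2, Dlx6, Lhx6, Lhx8, Nkx2-1, Gsx2 and Sp9, were at 0 counts in both pups.

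Genes for neuropeptides and calcium-binding proteins that mark subtypes of GABA neurons were read more strongly, though none of them is restricted to GABA neurons. Of 14 genes, 8 were detected in both pups, and 2 of 9 tested were over 4-fold apart, both higher in pup 1. Over all genes 46.5% were over 4-fold apart, with 25.9% higher in pup 1. Sst, which encodes somatostatin, had 452 TPM in pup 1 and 261 TPM in pup 3. Calb2, which encodes calretinin, had 239 TPM in pup 1 and 170 TPM in pup 3. The peptide genes Npy and Tac1 followed, with Npy at 134 TPM in pup 1 and 200 TPM in pup 3, and Tac1 at 136 TPM in pup 1 and 101 TPM in pup 3. None of these met the 4-fold rule. Penk, the enkephalin gene, had 61.4 TPM in pup 1 and 0.54 TPM in pup 3, with a log2 count ratio of 6.62. Pvalb, Vip, Crh and Cort were at 0 in both.

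Slc12a5 (ENSMUSG00000017740.12, chromosome 2, 164960802 to 164999731, plus strand) encodes KCC2, the neuronal chloride extruder. It had 53.1 TPM in pup 1 [48.9 to 54.2] and 71.0 TPM in pup 3 [64.7 to 74.0], from 2917 counts in pup 1 and 3575 counts in pup 3 (62.0 ± 12.6 TPM, SD, n = 2). By counts it was the steadiest of the 10 genes, at 110 CPM in pup 1 and 108 CPM in pup 3, a ratio of 1.02 (0.967 to 1.07). The transcripts to which these counts were assigned differed. In pup 1 the retained-intron form Slc12a5-205 (3001 bases at the 3' end of the gene) led with 75.8% of abundance, against 10.4% in pup 3. In pup 3 another retained-intron form, Slc12a5-204 (744 bases), led with 45.4%, against 0% in pup 1. That lead is by abundance, which divides by length, and came from 474 counts, 13.2% of the Slc12a5 counts in pup 3. By counts the full coding form Slc12a5-201 led in pup 3, with 70.1%.

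The full coding form Slc12a5-201 (6024 bases) held 19.5% of abundance in pup 1 and 26.2% in pup 3. It had 999 counts in pup 1 and 2508 in pup 3, or 10.3 TPM in pup 1 [9.25 to 10.8] and 18.6 TPM in pup 3 [17.3 to 19.1]. Forms with a retained intron were assigned 65.2% of the Slc12a5 counts in pup 1 (63.5 to 67.0) and 26.9% in pup 3 (25.5 to 28.4). Slc12a5-205 shares 2492 bases with Slc12a5-201 and has 504 bases in no other form. Its count is thus in part an assignment among shared bases, which these intervals do not cover. So the gene total matched between pups while the count assigned to the coding form did not, being higher in pup 3. Slc12a5 and Gad2 were the 2 of 5 genes testable among the 10 whose most abundant transcript by TPM differed between pups, against 37.2% of 5311 genes. For Gad2 in pup 1 the intervals overlapped, at 1.64 TPM [0.585 to 2.77] for Gad2-202 and 1.60 TPM [1.30 to 1.83] for Gad2-201. By counts the leading transcript differed for Slc12a5 alone, against 30.9% of the same genes.

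Slc12a5 has a pair of known starts, which give the proteins KCC2a and KCC2b. Among the deposited forms the upstream start was represented by Slc12a5-202, a form of 462 bases without a reading frame, which had 14.8 counts in pup 1 and 105 in pup 3. That was 4.72% of Slc12a5 abundance in pup 1 and 17.96% in pup 3, so reads at this start were few in pup 1.

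Slc12a2 (ENSMUSG00000024597.10, chromosome 18, 57878678 to 57946821, plus strand) encodes NKCC1, which imports chloride with sodium and potassium. It had 3.23 TPM in pup 1 [2.81 to 3.48] and 15.4 TPM in pup 3 [14.5 to 15.7], from 338 counts in pup 1 and 2257 counts in pup 3 on a single transcript. Pup 3 was the higher, with a log2 count ratio of -2.42 or 5.36-fold lower in pup 1 (4.78 to 6.03). NKCC1 is also made by cells other than neurons. The choroid plexus markers stayed near 0, at a summed 0.05 TPM in pup 1 and 0.16 TPM in pup 3, with Folr1, Clic6 and Kl at 0 in both. The 4 endothelium markers did not go one way. Cldn5 carried most of their sum, with 147 TPM in pup 1 and 115 TPM in pup 3, while 1 marker was over 4-fold higher in pup 3, as Slc12a2 was. The part of vessels and glia in the Slc12a2 difference was not tested.

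The extruder was above the importer in both pups. The log2 ratio of (TPM + 1) of Slc12a5 to Slc12a2 was 3.68 in pup 1 and 2.13 in pup 3 (2.90 ± 1.09, SD, n = 2), or 16.4-fold in TPM in pup 1 and 4.598-fold in pup 3. For the full-length coding forms alone the order held but shrank, to log2 ratios of 1.42 in pup 1 and 0.25 in pup 3 (0.84 ± 0.83, SD, n = 2), or 3.20-fold in pup 1 and 1.20-fold in pup 3. Slc12a7, which encodes KCC4, was at 0 in both pups, below Slc12a2 with log2 ratios of 2.08 in pup 1 and 4.04 in pup 3 (3.06 ± 1.38, SD, n = 2). With a gene at 0 this size too depends on the pseudocount, and the mean was 6.17 with a pseudocount of 0.1 and 1.37 with a pseudocount of 5.

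**Figure D4:**
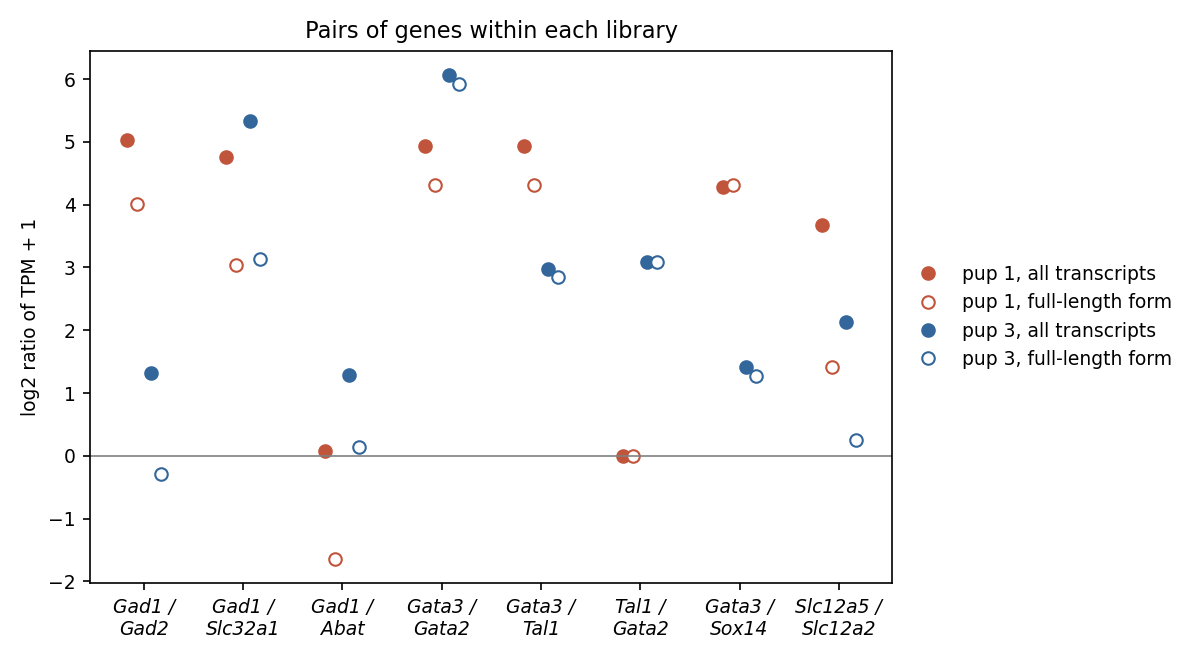
Log2 ratio of (TPM + 1) for pairs among the 10 genes in pup 1 (red) and pup 3 (blue), with all transcripts summed (filled) and with the full-length coding form alone (open). The Gad1 to Gad2 ratio in pup 3 crosses 0, from 1.31 with all transcripts to -0.29 with the full forms, and the Slc12a5 to Slc12a2 ratio moves toward 0 in both pups.

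**Figure D5:**
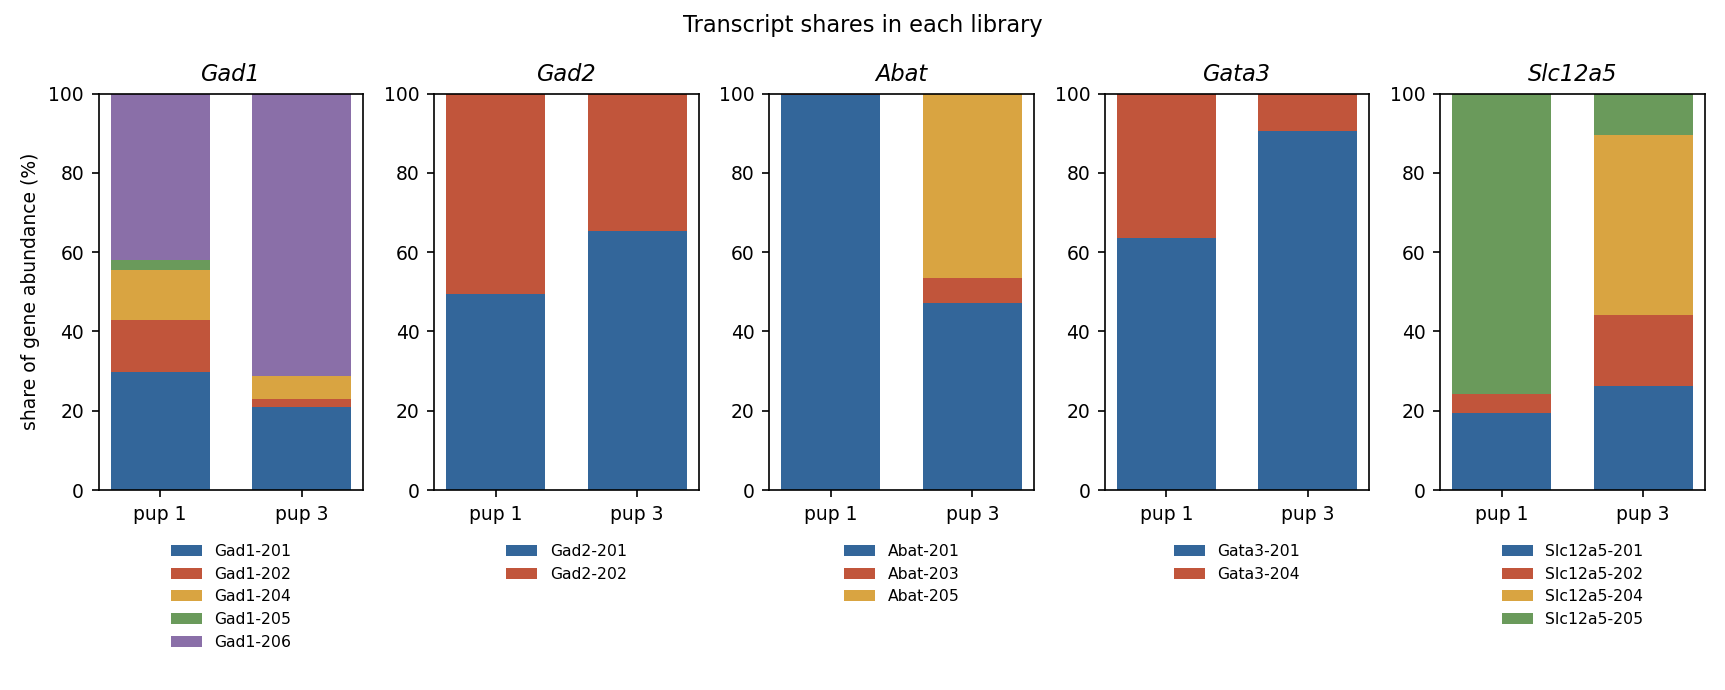
Deposited percent of gene abundance on each transcript of Gad1, Gad2, Abat, Gata3 and Slc12a5, as stacked bars for pup 1 and pup 3 that sum to 100%. Abat-201 fills nearly all of pup 1 but under 50% of pup 3, and the leading Slc12a5 form changes from Slc12a5-205 in pup 1 to Slc12a5-204 in pup 3.

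Of 25 cotransporters and proteins that regulate them, 14 were detected in both pups. The 14 are to be read against the 19 detected in at least 1 pup and the 60.8% of all genes. Of 19 tested, 3 were over 4-fold higher in pup 1 and 7 were over 4-fold higher in pup 3. The same rule listed 46.5% of all genes, with 25.9% higher in pup 1 and 20.5% higher in pup 3. Stk39 encodes SPAK, a kinase that activates NKCC1 and inhibits KCC2, and had 5.58 TPM in pup 1 and 45.8 TPM in pup 3, a log2 count ratio of -3.65. Wnk1, a kinase upstream of SPAK, had 5.18 TPM in pup 1 and 36.0 TPM in pup 3, a log2 count ratio of -2.92. Both were over 4-fold higher in pup 3, but the WNK kinases did not go one way, since 2 other WNK genes of the list were over 4-fold higher in pup 1. Genes named for a high level did not meet the 4-fold rule. Ckb, a creatine kinase that binds KCC2, had 1295 TPM in pup 1 and 1321 TPM in pup 3. The phosphatase subunit Ppp1ca had 500.0 TPM in pup 1 and 433 TPM in pup 3, and the chloride transporter Clcn3 had 67.3 TPM in pup 1 and 16.9 TPM in pup 3. Slc12a1, Slc12a3, Slc12a7 and Slc12a8 were at 0 in both.

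Besides Abat, 5 of 7 genes of GABA uptake and breakdown were detected in both pups. Slc6a11 encodes GAT3, an astrocyte transporter, and had 43.2 TPM in pup 1 and 5.38 TPM in pup 3, a log2 count ratio of 2.84. It was over 4-fold higher in pup 1, as Abat was. Slc6a13, a transporter also of the meninges, had 77.9 TPM in pup 1 and 55.8 TPM in pup 3. The 4 meninges markers, Slc6a13 among them, did not go one way. Ptgds carried most of their sum, with 2555 TPM in pup 1 and 3513 TPM in pup 3, while 1 marker was over 4-fold higher in pup 1. The other named genes did not meet the 4-fold rule, with the aldehyde dehydrogenase Aldh9a1 at 31.8 TPM in pup 1 and 42.3 TPM in pup 3, and the transporter Slc6a12 at 13.2 TPM in pup 1 and 47.9 TPM in pup 3. In all, 3 of 7 tested were over 4-fold higher in pup 1 and 1 was over 4-fold higher in pup 3. The rule listed 25.9% of all genes as higher in pup 1 and 20.5% as higher in pup 3.

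All 10 genes listed for the supply of glutamate, the substrate of both decarboxylases, were detected in both pups. Of these, 4 were over 4-fold higher in pup 1, and 0 were over 4-fold higher in pup 3, against 25.9% of all genes higher in pup 1 and 20.5% higher in pup 3. A share of 4 in 10 for either direction is near the 46.5% of all genes. The glutamate transporter Slc1a1 had 96.9 TPM in pup 1 and 10.6 TPM in pup 3. The glutamine transporter Slc38a5 had 87.9 TPM in pup 1 and 14.4 TPM in pup 3, and its relative Slc38a3 had 59.8 TPM in pup 1 and 13.1 TPM in pup 3. These were among the 4 that passed. Glul, glutamine synthetase, had 112 TPM in pup 1 and 205 TPM in pup 3. The astroglial transporter Slc1a3 had 213 TPM in pup 1 and 101 TPM in pup 3, and Slc38a2 had 33.2 TPM in pup 1 and 85.9 TPM in pup 3. None of these met the 4-fold rule.

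Enzymes that make the cofactor were also checked. Pdxk, pyridoxal kinase, had 118 TPM in pup 1 and 25.3 TPM in pup 3, and by counts did not meet the 4-fold rule. Of 2 vitamin B6 genes, 1 was detected in both pups and 1 was over 4-fold apart, higher in pup 1. Over all genes the share over 4-fold apart was 46.5%.

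On the receiving side, 9 of 14 GABA-A receptor subunits were detected in both pups. The beta subunit Gabrb2 had 71.6 TPM in pup 1 and 59.3 TPM in pup 3, and the alpha subunit Gabra3 had 91.4 TPM in pup 1 and 37.7 TPM in pup 3, and neither met the 4-fold rule. Gabra2 had 3.24 TPM in pup 1 and 85.2 TPM in pup 3, and was over 4-fold higher in pup 3. Gabrg1 had 42.0 TPM in pup 1 and 0 TPM in pup 3, and was over 4-fold higher in pup 1. Of 11 tested, 3 were over 4-fold higher in pup 1 and 2 were over 4-fold higher in pup 3. The shares over all genes were 25.9% higher in pup 1 and 20.5% higher in pup 3. Gabrd and Gabre were at 0 in both pups.

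Of 5 genes for the GABA-B receptor and the scaffold of inhibitory synapses, 4 were detected in both pups. Gphn, which encodes the scaffold protein gephyrin, had 123 TPM in pup 1 and 97.8 TPM in pup 3. The receptor subunit Gabbr1 had 59.1 TPM in pup 1 and 41.5 TPM in pup 3, and the adhesion protein gene Nlgn2 had 16.02 TPM in pup 1 and 63.3 TPM in pup 3. These did not meet the 4-fold rule, and 1 of the 5 was over 4-fold apart, higher in pup 1. The rule listed 46.5% of all genes, with 25.9% higher in pup 1.

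Across the 10 lists, which held 127 genes with a row, 69 were detected in both pups. Of the 91 tested, 38 (41.8%) were over 4-fold apart, near the 46.5% of all genes.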

How the data were processed

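RNA above the small-RNA size was extracted with a mirVana kit and amplified by a SMART-type protocol with spike-ins, per the labels' protocols. Per the file headers, the assembly was mm10 with GENCODE M4. The sources used here do not name the aligner, the quantification program or the strand setting. Deposited tables hold expected counts (estimates, rounded here for ratios and intervals), TPM and FPKM, posterior means, bounds of the TPM interval (deposited on the signal scale of TPM), and each transcript's deposited percent of its gene's abundance. TPM was scaled over all 69691 rows, of which 26248 were tRNA and 97 spike-in rows. CPM used all counts of a library.

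Identifiers, without version, were matched to GENCODE M21 on GRCm38, which gave 42462 symbols and the coordinates. Of 37 transcripts of the 10 genes, 32 had the same length in both releases. The 6 genes annotated over the 10 genes had 0 counts in both pups. Exact intervals are Clopper-Pearson at 95%. They and the floors cover counting error alone, because amplified reads are not independent molecules, and p-values across pups were not computed. A pair was given a direction on log2(TPM + 1) when both pups agreed and the deposited intervals overlapped in neither. Leading transcripts were compared for genes with 50 counts in each library. Named were the 10 genes, both genes of each pair, up to 4 genes per list by mean TPM, those over 4-fold apart at a mean of 20 TPM or more, and genes at 0 in both pups. Cell type markers given with values above 0 were chosen after their values were seen. Pdxp had no row, and some genes and a sequence that these rules select are not reported here. The genes, lists and pairs were chosen with earlier results of these data known.

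The size rule was tested on simulated data with counting error alone, which does not show its behaviour in libraries amplified from little RNA. Work used Python 3.11.15 (numpy 2.4.6, pandas 2.3.3, scipy 1.17.1, biopython 1.88, matplotlib 3.10.9). DESeq2 1.42.0 and edgeR 4.0.16 in R 4.3.3 gave scaling factors alone, since 1 group allows no test.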

Additional observations from a re-analysis of the deposited data

How the results depend on the processing

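The number of the 10 genes detected in both pups, 7, was 4 at a limit of 10 TPM, and 6 to 8 with FPKM, 0.1 TPM, at least 10 counts or the posterior mean, while single pups gave 7 to 9. Their mean summed level, 359 TPM, was 352 TPM with the posterior mean and 398 TPM after rescaling to nuclear mouse genes, and 357 to 361 TPM for single pups. The genes over 4-fold apart, 5 of 9, were the same 5 in the same direction with TMM, DESeq2 or spike-in scaling, posterior mean counts or no filter on low values, and 7 passed at 2-fold. Those scalings moved every log2 ratio by 0.19, 0.20 and 0.11. Over all genes the 5644 listed became 5613 to 5982, and 7532 at 2-fold. Of 13 pairs, the 10 with a direction kept their sign under every pseudocount and unit run. That sign cannot change with the pseudocount or between TPM and FPKM, and the interval rule was not applied again there. Within single pups, 11 to 12 pairs had intervals that did not overlap. Gad1-206 held 56.6% of Gad1 by TPM, 62.3% by counts, and 41.9 to 71.3% in single pups. List genes detected in both pups numbered 69, 49 at 10 TPM, and 80 for each single pup. No paired analysis was possible because both libraries belong to 1 group. Depth limits the reading of 0 counts to the 3-count floor, and 13 pg of RNA limits it further in a way these files cannot measure.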
